A study of Homo sapiens with 10 samples.

Results

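The ATF4 integrated stress response genes examined here are a list of 38 human genes: ATF4 and partner transcription factors, the feedback regulators they induce, and the enzymes, amino acid transporters and tRNA synthetases of the amino acid response. Members were found by matching the gene symbol that the platform annotation gives to each probe set. Where a symbol had more than 1 probe set, the one used was chosen by its mean signal over the 10 arrays, the brightest being taken. The choice of probe set used no other measured value, and it mattered for CBS alone. The list of members was itself drawn up with earlier results of these data known. Counts over the members therefore describe this list and are no independent test of it. On the array 36 of the 38 members were named, among 17687 named genes. ATF5 and MARS1 were not matched and are named only.

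In the integrated stress response, kinases that sense amino acid shortage, unfolded proteins, viral RNA or haem shortage phosphorylate the translation factor eIF2alpha. Bulk protein synthesis then falls, while translation of ATF4 mRNA is favoured by its upstream open reading frames, so that ATF4 is known to be controlled largely at the level of translation. ATF4 pairs with C/EBP-family proteins on DNA and induces genes for amino acid synthesis, amino acid import, tRNA charging and, under lasting stress, growth arrest and cell death. The pathway is much studied in tumours, including neuroblastoma, where serine synthesis genes are known ATF4 targets. The arrays measured RNA, and no protein or phosphorylation was measured.

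RNA came from SK-N-AS and SK-N-FI, human neuroblastoma cell lines. The groups were SK-N-AS treated with BG-P1600-TAT (3 arrays, numbered 28, 29 and 30), SK-N-AS control (3 arrays, 25, 26 and 27), SK-N-FI treated (2 arrays) and SK-N-FI control (2 arrays). Treated cells received 30 µM of the conjugate for 48 h, and control cells had PBS over that period. BG-P1600-TAT is a polymer conjugate that the series title places at the norepinephrine transporter and the integrin αvβ3, and the SK-N-AS titles write it BG-P-TAT, which was read here as the same agent. Each line is a single established line, the study planned 3 SK-N-FI replicates where 2 per group were analysed here, and nothing in the labels gives the SK-N-AS arrays separate cultures. P-values therefore measure a spread between arrays that may be technical.

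ATF4 and C/EBP proteins are known to bind a composite element of 8 bases, TGATGNAA. It was sought on both strands in the 250 bases upstream of each gene start in RefSeq (GRCh38.p14). Of the 31 members named on the array that had an entry there, 6 (19.4%) held a match, namely CEBPG, JDP2, CHAC1, ASNS, AARS1 and GARS1, against 3.15% of 14250 genes named on the array and 3.14% of all 35116 promoters. The windows of the glutathione-degrading enzyme gene CHAC1, the asparagine synthetase gene ASNS and the alanyl-tRNA synthetase gene AARS1 are shown as examples. These members were called higher in SK-N-AS controls after quantile normalization, as were CEBPG, JDP2, GARS1 and most other members. Each reads 5′ to 3′ in the direction of the gene, with the match in capitals. The first base of the match lies 209, 68 and 187 bases before the gene start for CHAC1, ASNS and AARS1, and in CHAC1 and AARS1 the element lies on the opposite strand.
CHAC1, chr15:40953232-40953299, plus strand: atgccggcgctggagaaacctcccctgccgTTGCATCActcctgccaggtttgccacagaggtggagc
ASNS, chr7:97872439-97872506, minus strand: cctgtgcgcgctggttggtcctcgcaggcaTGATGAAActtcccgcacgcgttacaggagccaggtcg
AARS1, chr16:70289656-70289723, minus strand: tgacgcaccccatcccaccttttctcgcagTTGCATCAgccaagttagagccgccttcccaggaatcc
A match describes the letters in this window and does not show binding, and the lack of one elsewhere says only that these letters are not there.

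Values are deposited log2 signals, on which a difference of 1 is 2-fold. Their median over gene probe sets was 5.75 to 5.81 in SK-N-AS and 6.61 to 6.62 in SK-N-FI, so each difference between lines was fitted on values quantile-normalized over all 10 arrays and is given with its deposited counterpart. Run and line cannot be told apart here. Above background means brighter than 95% of the array's 612 negative control probe sets. This threshold was 6.75 to 7.23 on the SK-N-AS arrays and 7.44 to 8.26 on the SK-N-FI arrays. The same deposited signal could thus count as above background in SK-N-AS and not in SK-N-FI. Of 7 noradrenergic markers, DBH, SLC6A2 and PHOX2A were above background on all 4 SK-N-FI arrays and on no SK-N-AS array, and HAND2, GATA3 and ISL1 on all 10. TH, the remaining marker, was above background on no array of either line. Between control cells 4 of the 7 were called lower in SK-N-AS (7 as deposited) and 0 higher. Among all probe sets 22.5% were called lower in SK-N-AS (47.8% as deposited) and 24.1% higher (11.5% as deposited). Of 9 mesenchymal markers 6 had a called difference with SK-N-AS as the higher line and 1, CD44, the other way (5 and 2 as deposited), and 3 were above background on all 10 arrays. The 4 epithelial and 4 endothelial markers named on the array were above background on none of the 10 arrays, and of 4 leukocyte markers PTPRC alone was, on 5 SK-N-AS arrays.

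Detection of the members differed by line. Between 86.1% and 88.9% of the 36 members were above background on each SK-N-AS array, against 63.9% to 66.7% on each SK-N-FI array. Of all 21448 gene probe sets, 32.9% to 39.7% were above background on the SK-N-AS arrays and 38.3% to 44.3% on the SK-N-FI arrays. On all 10 arrays 21 members were above background (58.3%, against 27.2% of all probe sets). The 8 members above it on every SK-N-AS array and on no SK-N-FI array were DDIT3, JDP2, NUPR1, TRIB3, PPP1R15A, CHAC1, SLC6A9 and STC2 (22.2%, against 2.02% of all probe sets). Of these, DDIT3 had signals of 7.55 to 7.84 on treated SK-N-AS arrays, under the threshold of 8.26 on SK-N-FI treated array 1. VLDLR was the 1 member with the opposite pattern. ALDH1L2, CTH and PCK2 were above background on no array, and DDIT4, SESN2 and SLC7A11 were above it on only some arrays of a line.

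**Figure D1:**
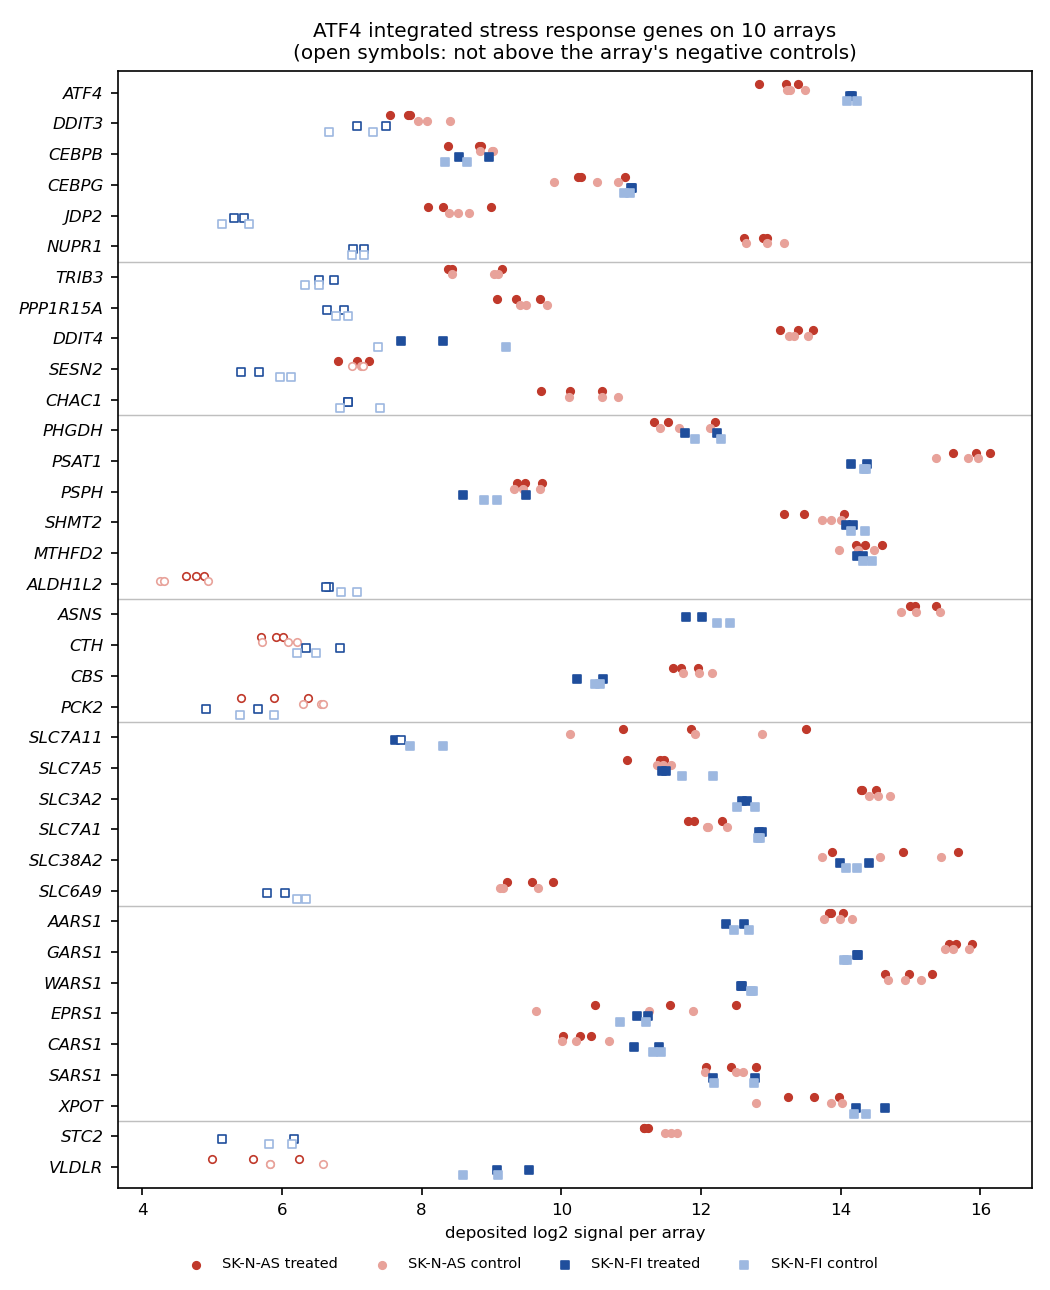
Deposited log2 signal (horizontal axis) of the 36 members on each array, with circles for SK-N-AS and squares for SK-N-FI, dark for treated and pale for control cells; open symbols were not above the array's negative controls. Dark and pale symbols of a line lie close together for most genes, while NUPR1, STC2, DDIT4 and ASNS lie far apart between the lines.

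The comparison of control cells asked where the lines stood without the conjugate. In SK-N-AS control cells 28 members were higher than in SK-N-FI control cells and 2, ALDH1L2 and VLDLR, were lower, at a limma adjusted p under 0.05 over all probe sets. The background was large: 46.6% of all probe sets were called, 24.1% with SK-N-AS and 22.5% with SK-N-FI as the higher line. The members' median log2 difference, SK-N-AS minus SK-N-FI, was 2.05, against 0.04 over all probe sets. Of the 21 members above background throughout, SK-N-AS was called higher for 16, and their median was 1.24, against 0.19 over the 5834 probe sets with that detection, of which 32.8% were called higher in SK-N-AS.

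On the deposited scale the median of all probe sets lay at -0.61, and 19 members were called higher in SK-N-AS against 5 in SK-N-FI, with a median of 0.95. For the 21 members above background throughout, the deposited scale gave 7 higher in SK-N-AS and 3 lower, with a median of -0.08, where the 5834 probe sets had 7.28% higher, 70.7% lower and a median of -1.31. There 59.3% of all probe sets were called, 11.5% with SK-N-AS and 47.8% with SK-N-FI as the higher line. All 19 were also called on the quantile-normalized scale, and each kept that call when any of the 10 arrays was left out. Fits between the lines with an array left out used the quantile-normalized values only, so the deposited calls were not tested in this way. The cationic amino acid transporter gene SLC7A1 was called in opposite directions by the scales, at 0.66 after quantile normalization and -0.64 as deposited, and its first call was lost without SK-N-AS control array 26 or either SK-N-FI control array. Ranked among all probe sets by the difference, the members had a median percentile of 94.3 on the quantile-normalized scale and 91.9 as deposited, and 22 and 19 of them lay in the upper 10%.

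Treated cells of the lines, on arrays that the control comparison does not contrast, gave 28 members with SK-N-AS and 2 with SK-N-FI as the higher line, and a median of 1.97. Of all probe sets 45.4% were called, 23.5% and 21.9% in these directions. Both comparisons called 27 of the members higher in SK-N-AS and both called ALDH1L2 and VLDLR higher in SK-N-FI, and none was called in opposite directions. As deposited, treated cells gave 17 members with SK-N-AS and 6 with SK-N-FI as the higher line, where 59% of all probe sets were called, 11.2% and 47.8% in these directions. Calls were not shared by control and treated cells for 5 members. In treated cells SLC38A2 passed after quantile normalization (1.32, adjusted p = 0.0294) and SLC7A1 did not (0.44, adjusted p = 0.134). As deposited, CTH was called lower in SK-N-AS in treated cells (-0.71, adjusted p = 0.0246), and DDIT3 (0.45) and PCK2 (0.60) did not pass there.

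**Figure D2:**
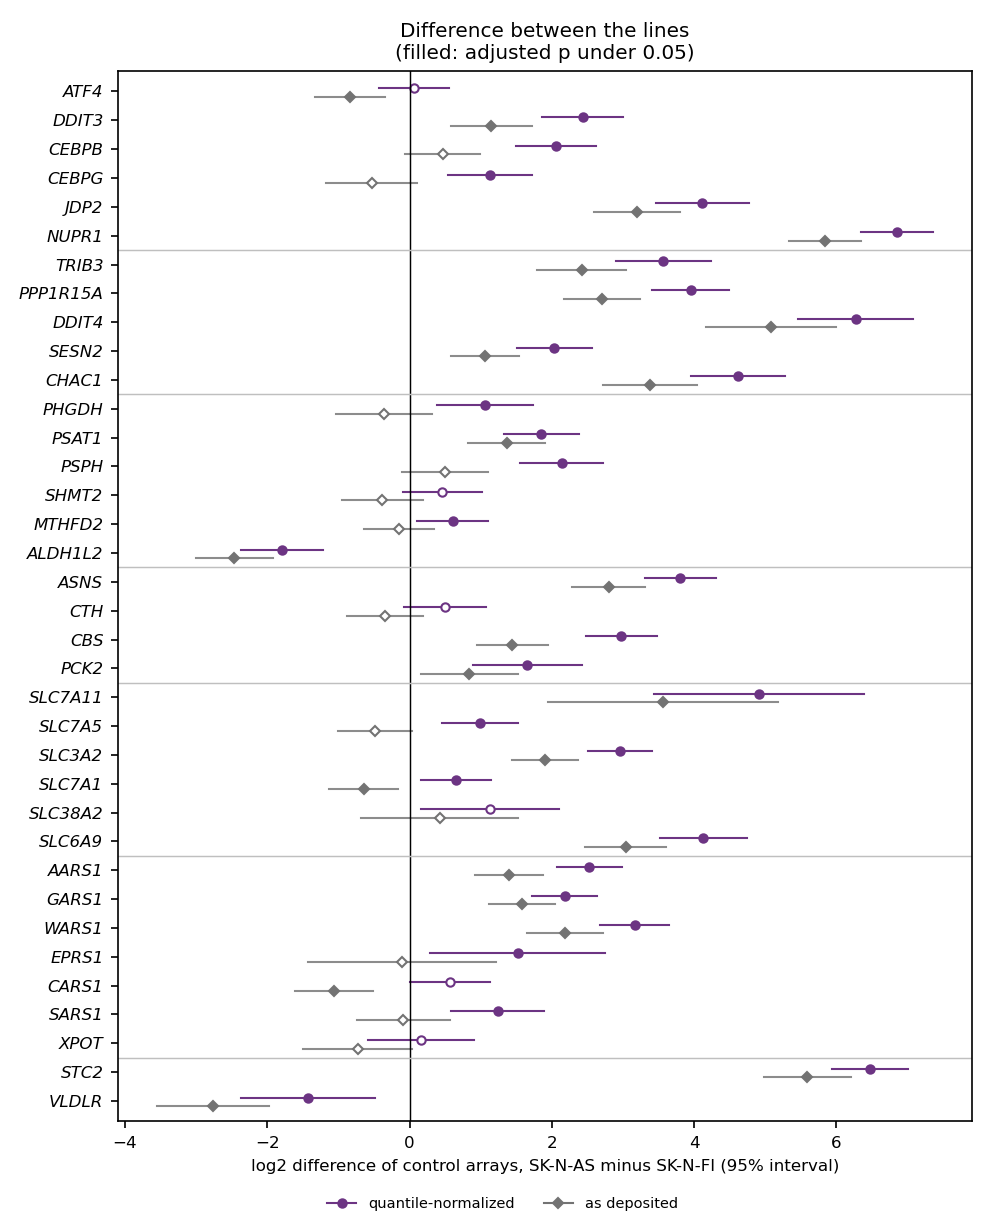
Log2 difference between control arrays, SK-N-AS minus SK-N-FI, with 95% intervals, for quantile-normalized values (circles) and deposited values (diamonds); filled symbols passed an adjusted p of 0.05. On the quantile-normalized scale 28 members lie to the right and pass, and the deposited values lie further left for all 36.

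ATF4 itself, the transcription factor at the centre of the pathway, did not pass between the lines on the quantile-normalized scale. Its log2 signals were 13.39, 13.22 and 12.83 on treated and 13.49, 13.23 and 13.27 on control SK-N-AS arrays. In SK-N-FI they were 14.16 and 14.14 in treated and 14.10 and 14.24 in control cells. The SK-N-FI arrays were all higher as deposited, and the groups of each line overlapped between treated and control cells. The control difference, SK-N-AS minus SK-N-FI, was 0.06 after quantile normalization (95% interval -0.43 to 0.55, limma adjusted p = 0.845) and -0.84 as deposited (limma adjusted p = 0.00669). ATF4 stood at the percentile of 51.2 on the first scale, near the middle of all probe sets.

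DDIT3 encodes CHOP, the transcription factor induced late in the response and linked to cell death. Its signals were 7.81, 7.55 and 7.84 on treated and 8.41, 8.07 and 7.95 on control SK-N-AS arrays. In SK-N-FI they were 7.49 and 7.08 in treated and 6.68 and 7.31 in control cells, all below background. SK-N-AS control cells were at least 4.07-fold higher on the quantile-normalized scale and at least 1.54-fold as deposited (log2 difference 2.43, limma adjusted p = 1.37e-05). Each bound sets the SK-N-AS mean against the higher of the SK-N-FI background threshold and the gene's own SK-N-FI signal.

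NUPR1 encodes a small stress-induced chromatin protein. It had signals of 12.95, 12.89 and 12.62 on treated and 13.19, 12.95 and 12.64 on control SK-N-AS arrays. Treated SK-N-FI cells had 7.17 and 7.02, and control SK-N-FI cells 7.17 and 7.005. No SK-N-FI value came near the SK-N-AS values, and in each line treated and control arrays overlapped. SK-N-AS control cells were at least 92.3-fold higher after quantile normalization and at least 42.4-fold as deposited (limma adjusted p = 1.21e-09).

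CEBPB, a C/EBP partner of ATF4, had 8.83, 8.85 and 8.38 on treated and 9.02, 8.84 and 9.005 on control SK-N-AS arrays. In SK-N-FI it had 8.53 and 8.96 in treated and 8.33 and 8.65 in control cells. The lines lay close as deposited (0.47, limma adjusted p = 0.115), and the difference was called after quantile normalization (2.06, adjusted p = 4.83e-05). CEBPG, another C/EBP partner, behaved likewise, with a called difference of 1.14 after quantile normalization and -0.53 as deposited, which did not pass. JDP2, a bZIP repressor that pairs with Jun proteins, was above background in SK-N-AS alone. It was at least 5.38-fold higher in SK-N-AS controls after quantile normalization and at least 2.01-fold as deposited.

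The feedback and stress regulators were all higher in SK-N-AS on both scales. TRIB3, a pseudokinase that binds ATF4 and restrains it, had 9.15, 8.43 and 8.38 on treated and 9.09, 8.44 and 9.04 on control SK-N-AS arrays. Treated SK-N-FI cells had 6.74 and 6.53, and control SK-N-FI cells 6.54 and 6.33, all below background. SK-N-AS control cells were at least 6.72-fold higher after quantile normalization and at least 2.52-fold as deposited (limma adjusted p = 2.24e-06). In SK-N-AS the lower TRIB3 values, 8.38 to 8.44, came from treated arrays 29 and 30 and control array 26.

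PPP1R15A encodes GADD34, which returns eIF2alpha to its unphosphorylated form. Its signals were 9.70, 9.36 and 9.08 on treated and 9.41, 9.79 and 9.49 on control SK-N-AS arrays. In SK-N-FI they were 6.64 and 6.89 in treated and 6.95 and 6.77 in control cells, below background throughout. SK-N-AS control cells were at least 10.9-fold higher after quantile normalization and at least 4.12-fold as deposited (adjusted p = 1.51e-07).

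DDIT4, or REDD1, restrains mTORC1 under stress. It had 13.60, 13.38 and 13.13 on treated and 13.33, 13.27 and 13.54 on control SK-N-AS arrays. Treated SK-N-FI cells had 8.30 and 7.70, and control SK-N-FI cells 7.37 and 9.21, with control array 1 below background. The SK-N-FI control arrays were 1.84 apart, the widest gap of any member in that line. The control difference was 6.27 after quantile normalization (95% interval 5.47 to 7.08) and 5.09 as deposited (4.17 to 6.003).

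SESN2, which signals leucine shortage to mTORC1, had 7.25, 7.08 and 6.81 on treated and 7.17, 7.01 and 7.13 on control SK-N-AS arrays. In SK-N-FI it had 5.41 and 5.67 in treated and 6.13 and 5.97 in control cells, and no SK-N-FI array was above background. Only 4 of the 6 SK-N-AS arrays were, so its called difference of 2.04 (1.06 as deposited) describes signals close to background. CHAC1 degrades glutathione and is a late target of ATF4. It had 10.58, 10.12 and 9.71 on treated and 10.81, 10.11 and 10.58 on control SK-N-AS arrays, against 6.95 and 6.95 in treated and 7.41 and 6.84 in control SK-N-FI cells. Every SK-N-AS value exceeded every SK-N-FI value, which lay below background, and SK-N-AS control cells were at least 19.8-fold higher after quantile normalization and at least 7.88-fold as deposited (adjusted p = 2.27e-07).

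PHGDH, which opens serine synthesis from 3-phosphoglycerate, had 12.20, 11.52 and 11.33 on treated and 12.12, 11.41 and 11.68 on control SK-N-AS arrays. Treated SK-N-FI cells had 12.23 and 11.77, and control SK-N-FI cells 12.29 and 11.91. The lines overlapped as deposited (-0.36, adjusted p = 0.335), and the called difference after quantile normalization (1.07, adjusted p = 0.0139) was lost without SK-N-FI control array 2 (0.83, adjusted p = 0.135).

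PSAT1, the aminotransferase of the pathway's next step, had 15.61, 15.94 and 16.14 on treated and 15.36, 15.82 and 15.96 on control SK-N-AS arrays. In SK-N-FI it had 14.15 and 14.38 in treated and 14.37 and 14.33 in control cells. SK-N-AS controls were higher on both scales, by 1.85 after quantile normalization (adjusted p = 6.99e-05) and 1.37 as deposited (adjusted p = 4.49e-04). PSPH, the phosphatase that releases serine, was called on the quantile-normalized scale (2.14) and not as deposited (0.50). It shares sequence with a pseudogene, so its signal is less certain.

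SHMT2, which moves a carbon unit from serine to folate in mitochondria, did not pass on either scale (0.46 and -0.38 as deposited). MTHFD2, the next mitochondrial folate enzyme, passed after quantile normalization (0.60, adjusted p = 0.0450), a call that was lost without any 1 of 7 arrays (SK-N-AS 26, 27 or 29 or any SK-N-FI array), and did not pass as deposited (-0.15). ALDH1L2, a mitochondrial formyl-folate dehydrogenase, was lower in SK-N-AS (-1.79, and -2.46 as deposited), with signals below background on all 10 arrays.

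ASNS makes asparagine from aspartate and glutamine and is a classical marker of the amino acid response. Its signals were 15.37, 15.06 and 14.99 on treated and 15.42, 14.86 and 15.08 on control SK-N-AS arrays. In SK-N-FI they were 11.79 and 12.01 in treated and 12.23 and 12.41 in control cells. ASNS was above background in both lines, and the lowest SK-N-AS value was well over the highest SK-N-FI value. The control difference was 3.80 after quantile normalization (95% interval 3.30 to 4.31, a 14.0-fold difference, adjusted p = 1.13e-07) and 2.80 as deposited (6.96-fold).

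CBS, which opens transsulphuration from homocysteine to cysteine, was higher in SK-N-AS by 2.98 after quantile normalization and 1.44 as deposited. Its second, dimmer probe set gave 1.96 and 0.31, and CBS has a near-identical copy in the genome, so the signal cannot be assigned to one locus. CTH, which completes transsulphuration, had 5.91, 6.01 and 5.70 on treated and 6.21, 5.72 and 6.09 on control SK-N-AS arrays, against 6.34 and 6.83 in treated and 6.21 and 6.49 in control SK-N-FI cells. All CTH values lay below background, and control cells of the lines did not pass on either scale, save after quantile normalization without SK-N-AS control array 26 (0.70, adjusted p = 0.0473). PCK2, mitochondrial phosphoenolpyruvate carboxykinase, was likewise below background on all arrays, with a called difference of 1.66 (0.84 as deposited).

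SLC7A11, the cystine importer, was higher in SK-N-AS on both scales. Its signals were 10.88, 11.85 and 13.51 on treated and 10.13, 12.88 and 11.91 on control SK-N-AS arrays. In SK-N-FI they were 7.70 and 7.62 in treated and 8.31 and 7.84 in control cells. SK-N-AS lay above SK-N-FI on every array, but the SK-N-AS arrays spread over 2.63 in treated and 2.75 in control cells, the widest range of any member in each. The control difference was 4.92 after quantile normalization (95% interval 3.44 to 6.39, adjusted p = 9.84e-05) and 3.56 as deposited (1.94 to 5.19).

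SLC7A5, the large neutral amino acid exchanger LAT1, had 11.47, 11.41 and 10.94 on treated and 11.45, 11.57 and 11.37 on control SK-N-AS arrays. In SK-N-FI it had 11.49 and 11.45 in treated and 12.16 and 11.73 in control cells. After quantile normalization the control difference was 0.99 (adjusted p = 0.00590), and without SK-N-FI control array 2 it was 0.74 and did not pass (adjusted p = 0.0879). As deposited it was -0.48 and did not pass. SLC3A2, the heavy chain that SLC7A5 and SLC7A11 need at the membrane, was higher in SK-N-AS on both scales (2.96 and 1.90 as deposited, adjusted p = 4.04e-07 and 7.44e-06).

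SLC6A9, the glycine transporter GLYT1, had 9.88, 9.58 and 9.22 on treated and 9.66, 9.16 and 9.12 on control SK-N-AS arrays. In SK-N-FI it had 5.78 and 6.04 in treated and 6.34 and 6.21 in control cells, below background. SK-N-AS control cells were at least 9.17-fold higher after quantile normalization and at least 3.46-fold as deposited. SLC38A2, the sodium-coupled neutral transporter SNAT2, did not pass between control cells (1.13, adjusted p = 0.0538, and 0.42 as deposited). Without SK-N-AS control array 25 it passed (1.49, adjusted p = 0.0121), as it did without treated array 28 or 30.

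The tRNA synthetase members and the tRNA exporter XPOT were above background on all arrays, and 5 of these 7 were called higher in SK-N-AS after quantile normalization. WARS1, the tryptophanyl enzyme, had the largest difference of the 7 (3.16, and 2.18 as deposited). AARS1, the alanyl enzyme, differed by 2.53 (1.40 as deposited), and GARS1, the glycyl enzyme, by 2.18 (1.58 as deposited). These 3 passed on both scales. SARS1, the seryl enzyme (1.24), and EPRS1, the glutamyl-prolyl enzyme (1.52), passed only after quantile normalization and had deposited differences of -0.08 and -0.10. The EPRS1 call was lost without any 1 of the same 7 arrays as that of MTHFD2, and the SARS1 call without SK-N-FI control array 1 (0.92, adjusted p = 0.0808). CARS1, the cysteinyl enzyme, did not pass after quantile normalization (0.57) and was called lower in SK-N-AS as deposited (-1.07). XPOT passed on neither scale (0.16 and -0.73 as deposited).

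STC2, a secreted glycoprotein induced by stress, had 11.24, 11.19 and 11.18 on treated and 11.49, 11.66 and 11.57 on control SK-N-AS arrays. In SK-N-FI it had 5.14 and 6.18 in treated and 5.82 and 6.14 in control cells, all below background. SK-N-AS control cells were at least 39.6-fold higher after quantile normalization and at least 16.6-fold as deposited (adjusted p = 2.78e-09). VLDLR, a lipoprotein receptor, ran the other way. Its signals were 6.24, 5.00 and 5.58 on treated and 5.82, 5.83 and 6.58 on control SK-N-AS arrays, below background, against 9.08 and 9.53 in treated and 8.59 and 9.09 in control SK-N-FI cells. SK-N-FI control cells were at least 1.23-fold higher after quantile normalization and at least 3.57-fold as deposited (adjusted p = 0.0172 and 3.14e-05). The call on the quantile-normalized scale was lost without SK-N-FI control array 2 (-1.22, adjusted p = 0.127). Fewer cells with a transcript and less of it per cell cannot be told apart in such bulk RNA.

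The next comparison asked whether BG-P1600-TAT moved these genes in SK-N-AS. None of the 36 members passed (limma adjusted p = 1.00 for each, n = 3 arrays per group), and none had an unadjusted p under 0.05. Over all 21448 probe sets limma called 0%, and 2.6% had an unadjusted p under 0.05. Of the members 14 had a higher mean in treated cells and 22 a lower one, with a median log2 change of -0.06 against -0.00 over all probe sets. The 95% interval excluded a 2-fold change in either direction for 30 of the 36 (83.3%, against 82.1% of all probe sets).

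The smallest p-value in SK-N-AS was that of PCK2, whose signals of 6.37, 5.88 and 5.41 in treated and 6.56, 6.30 and 6.59 in control cells lay below background (change -0.60, unadjusted p = 0.0522 by limma). STC2 came next (-0.37, 95% interval -0.79 to 0.05), with all 3 treated arrays below all 3 control arrays. DDIT3 also had all treated arrays below the controls (-0.41, -0.89 to 0.07). These were the 2 members without overlap, both lower in treated cells, where 4.02% of all probe sets had that pattern, 3.29% the opposite one and 7.31% either. Neither passed the limma test.

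Changes of the remaining SK-N-AS members ran from -0.47 for VLDLR to 0.59 for EPRS1. ATF4 had a change of -0.19 (95% interval -0.69 to 0.31), and its treated and control arrays overlapped. All 5 feedback and stress regulators had lower means in treated cells, from -0.36 for CHAC1 to -0.01 for DDIT4, and none passed. The intervals were widest for SLC7A11 (0.44, -1.30 to 2.18), EPRS1 (0.59, -0.82 to 2.00) and SLC38A2 (0.24, -0.93 to 1.40). These did not exclude a 2-fold rise, and that of SLC7A11 did not exclude a 2-fold fall either.

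**Figure D3:**
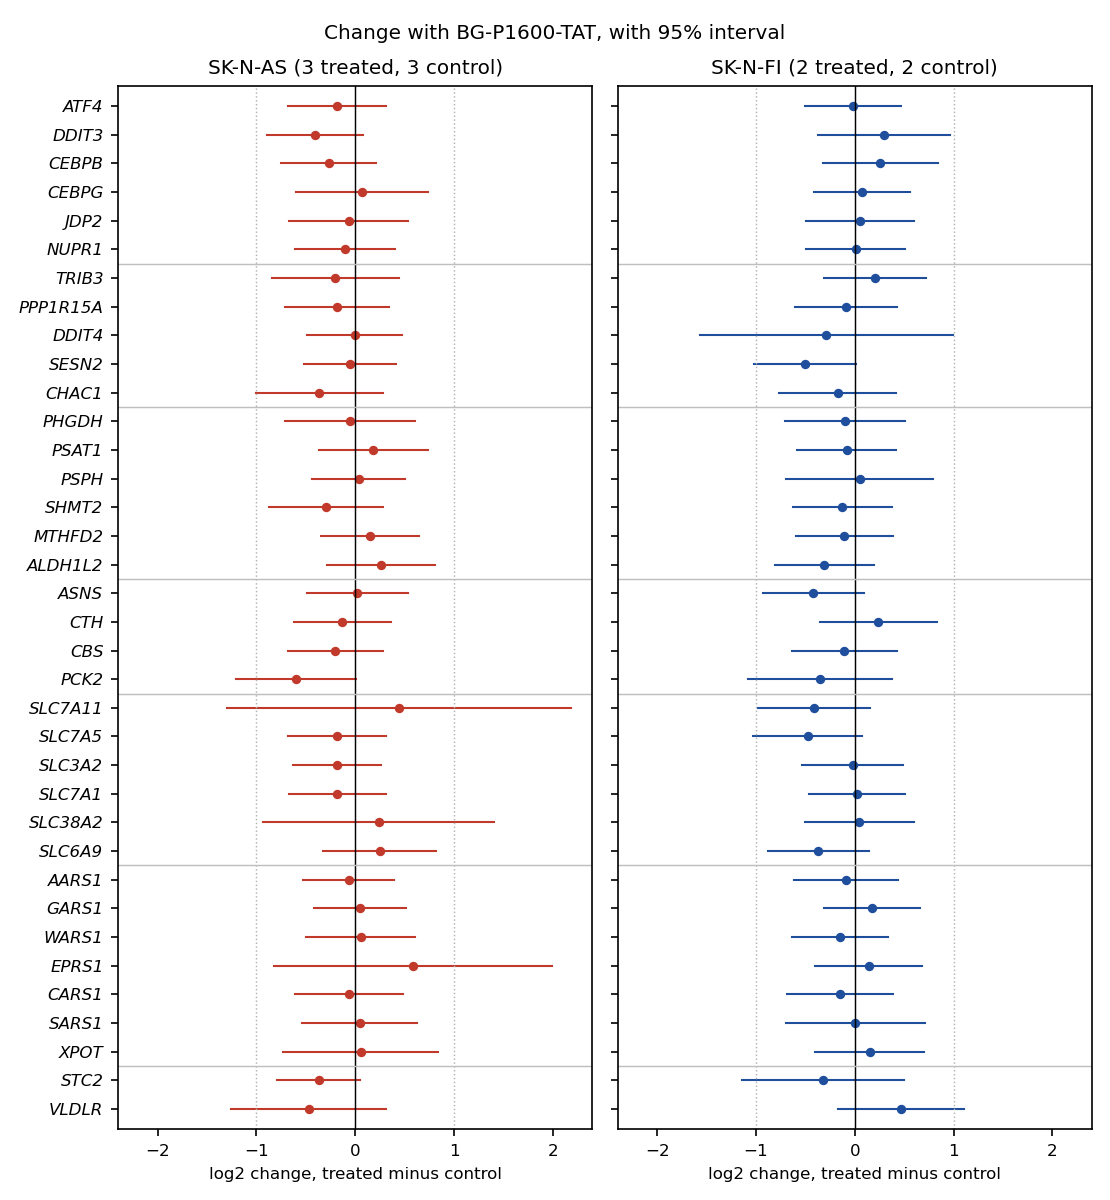
Log2 change of each member with BG-P1600-TAT, treated minus control, with its 95% interval, in SK-N-AS (left) and SK-N-FI (right); dotted lines mark 2-fold. Every interval includes 0, and those of SLC7A11 and EPRS1 in SK-N-AS and of DDIT4 in SK-N-FI are the widest.

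In SK-N-FI none of the 36 members passed either (limma adjusted p = 1 for each, n = 2 arrays per group), and none had an unadjusted p under 0.05. Over all probe sets limma called 0%, and 2.85% had an unadjusted p under 0.05. Of the members 15 had a higher mean in treated cells and 21 a lower one, with a median of -0.09 against -0.01 over all probe sets. Without treated array 2 the members' median was 0.01. The 95% interval excluded a 2-fold change for 30 of 36 (83.3%, against 84.9% of all probe sets). The smallest p-values were those of SESN2 (-0.51, -1.02 to 0.01), SLC7A5 (-0.48, -1.03 to 0.08) and ASNS (-0.42, -0.93 to 0.09), with unadjusted limma p-values of 0.0545, 0.0812 and 0.0942.

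Treated and control SK-N-FI arrays did not overlap for 10 members. CEBPG and GARS1 were higher in treated cells, where 13.8% of all probe sets had that pattern. SESN2, MTHFD2, ALDH1L2, ASNS, SLC7A11, SLC7A5, SLC6A9 and WARS1 were lower, against 14% of all probe sets, and 27.8% of all probe sets did not overlap in either direction. SESN2, ALDH1L2 and SLC6A9 lay below background on every SK-N-FI array. ATF4 had a change of -0.02 (95% interval -0.51 to 0.47). DDIT4 had the widest interval (-0.29, -1.57 to 0.99).

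The difference between the lines in the effect of the conjugate was tested as an interaction. No member passed (limma adjusted p = 1.00 for each), and none had an unadjusted p under 0.05. Over all probe sets limma called 0%, and 2.13% had an unadjusted p under 0.05. Taken as the SK-N-AS change less the SK-N-FI change, it had a median of -0.03 over the members, which ran from -0.11 without SK-N-AS treated array 28 to 0.11 without SK-N-FI treated array 1. DDIT3 had the smallest p (-0.70, 95% interval -1.50 to 0.10), from a change of -0.41 in SK-N-AS and 0.30 in SK-N-FI. VLDLR followed (-0.94, -2.06 to 0.18), and then SLC6A9 (0.61, -0.18 to 1.41). For 17 members the interval excluded a 2-fold difference in either direction (47.2%, against 36.6% of all probe sets). For the other 19 a 2-fold difference was not excluded.

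The SK-N-AS arrays spread within the groups, the members included. On the leading principal component of all probe sets (50.04% of the variance), treated arrays 28, 29 and 30 scored -31.0, 6.71 and 50.6, and control arrays 25, 26 and 27 scored -57.5, 26.9 and 4.33. CEBPG, PSAT1, SLC7A11, SLC38A2, EPRS1 and XPOT were lowest of their group on both array 28 and array 25 (16.7% of members, against 17.9% of all probe sets). Another 15 members were highest on both (41.7%, against 20.1%), among them ATF4, NUPR1, TRIB3, SESN2, CHAC1, PHGDH, SHMT2, ASNS and AARS1. Arrays 28 and 25 were also left out together, a choice made after seeing the data. Then limma still called 0 probe sets for the change in SK-N-AS (763 at an unadjusted p under 0.05), and 29 members were called higher in SK-N-AS than in SK-N-FI controls and 2 lower, against 24.3% and 23.3% of all probe sets.

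**Figure D4:**
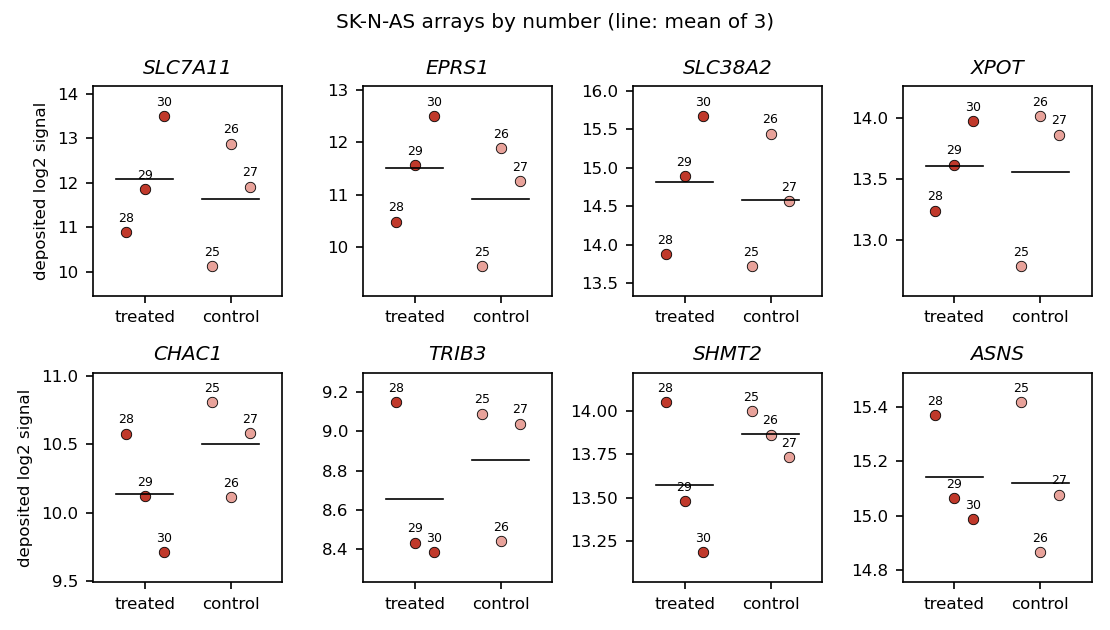
Deposited log2 signal of 8 members on each SK-N-AS array, treated on the left and control on the right of each panel, labelled with the array number, with a line at the mean of 3. Arrays 28 and 25 are lowest of their group for SLC7A11, EPRS1, SLC38A2 and XPOT and highest for CHAC1, TRIB3, SHMT2 and ASNS; the vertical scales differ between panels and do not start at 0.

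Other genes of the pathway were read from 5 further lists, and limma called 0 of their genes for treatment in either line or for the interaction (unadjusted p under 0.05 for 1 in SK-N-AS, 3 in SK-N-FI and 0 for the interaction). Between control cells, the list of 36 other ATF4-linked genes had 24 higher in SK-N-AS and 3 lower after quantile normalization (19 and 10 as deposited), with a median of 1.25. The shares of all probe sets in these directions were 24.1% and 22.5% (11.5% and 47.8% as deposited). GDF15, a stress-induced cytokine, NIBAN1, a translation regulator, TNFRSF10B, the death receptor DR5, and the protease gene CTSO were above background on every SK-N-AS array and on no SK-N-FI array. After quantile normalization the bound for SK-N-AS over SK-N-FI control cells was at least 41.3-fold for GDF15, 35.8-fold for NIBAN1, 27.6-fold for TNFRSF10B and 12.1-fold for CTSO. As deposited the bounds were 17.5-fold, 14.8-fold, 11.1-fold and 4.60-fold in that order. NARS1 stands both there and among the synthetases.

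The lists of genes upstream of ATF4 gave counts that depended on the scale. So did all probe sets, with 24.1% higher in SK-N-AS and 22.5% lower after quantile normalization, and 11.5% and 47.8% as deposited. Of 10 genes for eIF2alpha kinases and their regulators, 5 were higher in SK-N-AS and 1 lower after quantile normalization (0 and 6 as deposited). The lower one was EIF2AK3, which encodes PERK, the kinase of the endoplasmic reticulum. It was above background on every SK-N-FI array and on no SK-N-AS array, and SK-N-FI control cells were at least 2.29-fold higher (7.06-fold as deposited). NCK1, an adaptor linked to eIF2alpha dephosphorylation, was higher in SK-N-AS by 2.34 (0.70 as deposited). Of 10 genes for eIF2, eIF2B and the separate factors EIF2A and EIF2D, 5 were higher and 0 lower after quantile normalization (3 and 6 as deposited). The higher ones included EIF2D at 2.64 and EIF2B2 at 2.05.

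Synthetases outside the member list gave a comparison with the charging enzymes in it. Their counts stand beside 24.1% of all probe sets higher in SK-N-AS and 22.5% lower (11.5% and 47.8% as deposited). Of 11 other cytosolic synthetase genes, 5 were higher in SK-N-AS and 0 lower after quantile normalization (0 and 5 as deposited), with a median of 0.68, and YARS1, the tyrosyl enzyme, was highest at 1.41. For the 7 members with a role in tRNA charging or export the median was 1.52. As deposited the medians were -0.08 for these 7 and -0.80 for the 11 other cytosolic genes. Of 15 mitochondrial synthetase genes, 5 were higher and 6 lower (1 and 10 as deposited), with a median of -0.53. IARS2, the mitochondrial isoleucyl enzyme, was at 2.79 (1.37 as deposited). AARS2 was above background only in SK-N-FI controls, where its level was at least 2.05-fold higher than in SK-N-AS controls as deposited, with no bound over 1 after quantile normalization.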

How the data were processed

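Biotin-labelled RNA was measured on Affymetrix whole-transcript arrays, per the labels' protocols. The authors deposited 1 log2 signal for each probe set and array. RMA is named in the submitters' processing notes, as is Transcriptome Analysis Console 4.0.1.36. RMA corrects background and equalises arrays, so a change shared by most genes would be removed. Its settings and the genome build of the probe sets are not given in the sources used here. Arrays give no read depth, and their small number limits the precision.

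Of 24351 probe sets, 2903 controls were left out and 21448 tested, 17709 of them with a gene symbol. The lmFit and eBayes functions of limma 3.58.1 (R 4.3.3) compared treated with control arrays per line and, in 4 groups, the effects and the lines, with Benjamini-Hochberg adjustment over all probe sets and a threshold of 0.05. Comparisons of lines used quantile normalization over all 10 arrays. The fits were also run on simulated arrays with known changes in a small share of probe sets. Those arrays had no offset between the lines and were not quantile-normalized. Changes as small as those of the members with treatment were not simulated, so the run does not show that such changes would be found. Figures were drawn with matplotlib 3.10.9 in Python 3.11.15.

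The members, the other gene lists and the tests were chosen with earlier results of these data known. All members are described. Values of every array are given for 14 members set by name, the 3 smallest p-values per treatment comparison and interaction, and the 5 largest control differences per direction above background. Of each other list up to 4 genes with the largest difference above background are named. Alternatives covered scaling, dim probe sets, eBayes settings, array weights, a 2-fold threshold, a block on the array number and left-out arrays; leaving out arrays 25 and 28 and a crossed block were chosen after seeing the data.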

Additional observations from a re-analysis of the deposited data

How the results depend on the processing

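No member was called for treatment in either line, or for the interaction, under any alternative run. In SK-N-FI, the replicate block on the array number called 0 probe sets (471 at an unadjusted limma p under 0.05, against 611 without it). Same-numbered arrays had a correlation of deviations of -0.17, and crossed pairing also called 0 (924). Left-out arrays gave 433 to 816 in SK-N-AS, and for SK-N-FI they gave 529 to 1107, and array weights gave 1123 in SK-N-AS and 936 for the interaction. Between control cells, the deposited scale turned 12 members that were higher in SK-N-AS after quantile normalization to negative differences: ATF4 (-0.84), CARS1 (-1.07), CEBPG (-0.53), CTH (-0.34), EPRS1 (-0.10), MTHFD2 (-0.15), PHGDH (-0.36), SARS1 (-0.085), SHMT2 (-0.38), SLC7A1 (-0.64), SLC7A5 (-0.48) and XPOT (-0.73). With array medians subtracted, CARS1 was at -0.22 and 23 members were called higher in SK-N-AS, against 34.9% of all probe sets. ATF4 was at -0.014 without arrays 28 and 25. Leaving out 1 array moved ATF4 between -0.014 and 0.13 in controls and between -0.13 and 0.12 in treated cells, and XPOT between -0.047 and 0.49. Members called higher in SK-N-AS controls numbered 23 to 29 with 1 array left out, and those higher in SK-N-FI 1 to 2, while 3684 to 5309 and 3403 to 5015 of all probe sets were called in these directions. Those higher in SK-N-FI were 5 as deposited and 1 among probe sets above background (1 in treated cells too), where 6168 of 9780 probe sets were called between controls and 6008 between treated cells. In treated cells the deposited scale called 17 members with SK-N-AS and 6 with SK-N-FI as the higher line. The cause of these differences between alternatives was not tested. Signals of ALDH1L2, CTH and PCK2 near background limit what their values show.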
